A study of Cucumis sativus with 2 samples.

Results

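The genes described here are the cucumber (Cucumis sativus) homologues of the HD-ZIP III and KANADI organ polarity regulators, chosen as the rows of the deposited read table whose Arabidopsis locus is that of REV (AT5G60690), PHB (AT2G34710), PHV (AT1G30490), ATHB8 (AT4G32880), ATHB15 (AT1G52150), KAN1 (AT5G16560), KAN2 (AT1G32240), KAN3 (AT4G17695) or KAN4 (AT5G42630). These 9 loci gave 12 of the 20700 genes in the table, 5 HD-ZIP III and 7 KANADI genes, and 7 of the loci had at least 1 gene. No row carried the locus of PHV or of KAN3. The study sequenced poly(A) RNA from bending cucumber fruit at day 2 after anthesis, with 1 library from the ventral side and 1 library from the dorsal side of the fruit. The labels give no cultivar, no number of fruits per library and no genotype or treatment, and they do not say how these sides relate to the adaxial and abaxial faces of the carpels.

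HD-ZIP III proteins are plant transcription factors with a homeodomain, a leucine zipper and a START domain, and in Arabidopsis they specify the adaxial (upper or inner) side of lateral organs, the shoot meristem and the vascular tissue. Their transcripts are cut under the guidance of microRNAs of the miR165 and miR166 families. KANADI proteins belong to the GARP family of transcription factors and specify the abaxial (lower or outer) side. In Arabidopsis the families act against each other in leaves, carpels, ovules and vascular bundles. The level of one family relative to the other was therefore compared between the libraries. Whether it reports polarity between the sides of the fruit was not tested.

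All ratios are ventral over dorsal. Reads summed to 21863715 for the ventral and 11893394 for the dorsal library. Read counts were scaled by the trimmed mean of M values (TMM), a method that sets the bulk of genes level between libraries and here took the ventral library as 2.16 times as deep as the dorsal one. Brackets give 95% counting intervals, which cover the sampling of reads and neither amplification nor the spread between fruits. With 1 library per side no difference has a replicate check and none could be tested. Genes with 20 or more reads over both libraries are termed measured, and a measured gene is called when its scaled ratio was at least 2-fold either way with an interval that excluded a ratio of 1. Of 17462 measured genes, 2304 (13.2%) were called higher in the ventral library and 2005 (11.5%) lower in it, 24.7% in all. Scaling by total reads raised every log2 ratio by 0.23 and gave 3336 genes (19.1%) higher and 1283 (7.35%) lower, 26.5% in all.

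Of the 12 homologues, 9 were measured, and none of the 9 was called, beside 24.7% of all measured genes. At 2-fold with no condition on the interval the count was again 0, beside 25.3%. The 5 HD-ZIP III genes lay on both sides of a ratio of 1. The REV homologue, 1 of the PHB homologues and the ATHB15 homologue had more scaled reads in the ventral library, with intervals above a ratio of 1, while the ATHB8 homologue and the other PHB homologue had fewer, with intervals below it. The 4 measured KANADI genes lay within 1.32-fold of an equal level. In bulk tissue, a change in the number of cells that express a gene and a change in RNA per cell cannot be told apart.

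REV (Csa6G141360, chromosome 6), in Arabidopsis a regulator of axillary meristems, adaxial fate and vascular patterning, had 519 ventral and 133 dorsal reads, or 8.05 and 3.73 RPKM (reads scaled for transcript length and library depth, as deposited). Its scaled ratio was 1.81-fold, a log2 ratio of 0.85 [0.58 to 1.14]. It was the member with the highest ratio, and 82.7% of measured genes lay below it. Its ratio was 2.12-fold with scaling by total reads, and under that scaling it was called, beside 19.1% of all measured genes. It was also called from the ratio of deposited RPKM values, beside 18.7%.

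PHB, a regulator of adaxial fate in leaves and ovules, had a pair of homologues, which the deposited table names PHB-1D. Csa6G525430 (chromosome 6) had 544 ventral and 151 dorsal reads, or 7.83 and 3.93 RPKM, with a log2 ratio of 0.74 [0.48 to 1.01]. Csa1G538230 (chromosome 1) had 560 ventral and 302 dorsal reads, or 7.79 and 7.57 RPKM, with a log2 ratio of -0.22 [-0.42 to -0.01]. The copies therefore had nearly the same level per length in the ventral library, whereas in the dorsal library Csa6G525430 was at 0.519 times the RPKM of Csa1G538230. The ratio of Csa6G525430 to Csa1G538230 was 1.94-fold higher in the ventral library [1.54 to 2.46], a value that does not depend on library scaling. How reads that fit more than 1 copy were counted is not stated in the sources used here. With scaling by total reads the log2 ratio of Csa1G538230 was 0.01, close to an equal level.

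ATHB15 (Csa7G452940, chromosome 7; ICU4 in the deposited table), which in Arabidopsis restrains xylem formation and acts in the shoot meristem, had 1136 ventral and 363 dorsal reads, or 13.7 and 7.90 RPKM. Its log2 ratio was 0.54 [0.36 to 0.71]. ATHB8 (Csa3G895630, chromosome 3; HB-8 in the deposited table), an early marker of procambium that promotes xylem differentiation, had 1112 ventral and 742 dorsal reads, or 19.0 and 22.8 RPKM. Its log2 ratio was -0.53 [-0.66 to -0.39], the lowest of the measured members, and 26.3% of measured genes lay below it. Per length, ATHB15 stood at 0.722 of ATHB8 in the ventral library and at 0.346 in the dorsal one. In reads, the ratio of ATHB15 to ATHB8 was 2.09-fold higher in the ventral library [1.79 to 2.43].

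Among the KANADI genes, KAN1 (chromosome 3, Csa3G194380), in Arabidopsis a repressor that keeps adaxial genes off in abaxial cells, was the most abundant member on either side, with 2229 ventral and 937 dorsal reads, or 51.2 and 38.8 RPKM. Its log2 ratio was 0.14 [0.03 to 0.25]. A second KAN1 homologue (Csa1G043000, chromosome 1) had 360 ventral and 147 dorsal reads, or 11.8 and 8.74 RPKM, with a log2 ratio of 0.18 [-0.10 to 0.47]. The ratio of the first to the second differed little between the libraries: Csa1G043000 stood at 0.231 of the RPKM of Csa3G194380 in the ventral library and 0.226 in the dorsal library.

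KAN2, which overlaps in function with KAN1 in leaves and carpels, also had a pair of measured homologues, both on chromosome 3. Csa3G008330 had 458 ventral and 280 dorsal reads, or 17.3 and 19.2 RPKM, with a log2 ratio of -0.40 [-0.62 to -0.18]. Csa3G901010 had 547 ventral and 269 dorsal reads, or 25.1 and 22.2 RPKM, with a log2 ratio of -0.09 [-0.30 to 0.13] that turned to 0.15 with scaling by total reads. The interval of Csa3G008330 lay below an equal level and that of Csa3G901010 spanned it.

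The remaining 3 KANADI rows fell below the minimum of 20 reads. A KAN4 homologue (Csa2G360740, chromosome 2) missed it by 1 read, with 11 ventral and 8 dorsal reads, or 0.65 and 0.85 RPKM, and its log2 ratio of -0.65 [-2.10 to 0.87] is too imprecise to give a direction. KAN4, known in Arabidopsis as ABERRANT TESTA SHAPE, acts in the ovule integuments. A second KAN4 homologue (Csa3G852530, chromosome 3) had 1 ventral read and 0 dorsal reads. Another KAN1 homologue (Csa5G429440, chromosome 5) had 2 ventral reads and 0 dorsal reads. The limit that 0 observed reads set is 3 reads, or 0.252 CPM in the dorsal library, so neither gene could be compared between the sides.

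**Figure D1:**
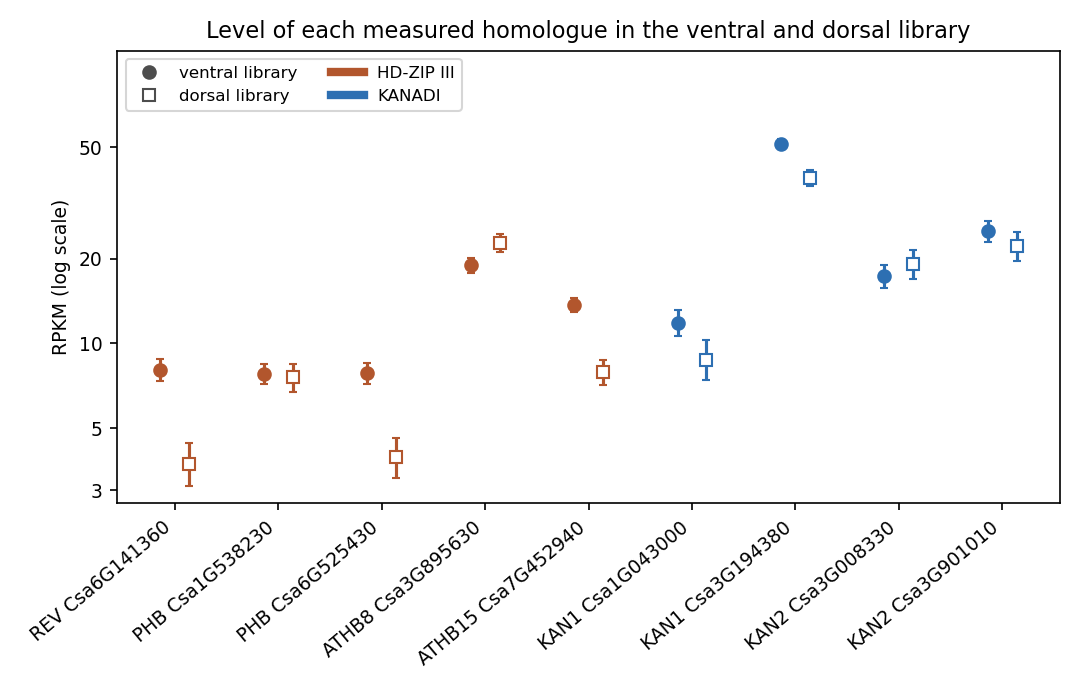
RPKM on a log scale for the 9 measured homologues, with filled circles for the ventral library, open squares for the dorsal library and bars for 95% counting intervals. The REV homologue stands at 8.05 and 3.73 RPKM and the ATHB8 homologue at 19.0 and 22.8 RPKM, while the most abundant KAN1 homologue stands above the other members in both libraries.

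The order of levels per length was led by KAN1 Csa3G194380 in both libraries, above 86.3% of genes of the ventral and 83.1% of the dorsal library. In the ventral library KAN2 Csa3G901010 came next, then ATHB8 and KAN2 Csa3G008330, whose counting intervals overlapped, then ATHB15 and KAN1 Csa1G043000, which overlapped as well. REV and both PHB homologues came last of the measured members, at 7.79 to 8.05 RPKM, and were not separated by counting error. In the dorsal library ATHB8 came second, and its interval of 21.2 to 24.5 RPKM overlapped that of KAN2 Csa3G901010, at 19.6 to 25.02 RPKM. KAN2 Csa3G008330 followed at 19.2 RPKM, with an interval that overlapped both. KAN1 Csa1G043000, ATHB15 and PHB Csa1G538230 had neighbouring levels of 7.57 to 8.74 RPKM with overlapping intervals there. PHB Csa6G525430 and REV closed the dorsal order at 3.93 and 3.73 RPKM, and their intervals overlapped each other but no other measured member.

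Summed over each family, HD-ZIP III genes reached 56.4 RPKM in the ventral and 45.9 RPKM in the dorsal library. The 7 KANADI genes reached 106.5 RPKM in the ventral and 89.7 RPKM in the dorsal library. HD-ZIP III transcripts thus stood at 0.529 of KANADI transcripts per length in the ventral library and at 0.512 in the dorsal library, a 1.03-fold difference between the sides. As summed reads, which weight long transcripts more, the ratio of HD-ZIP III to KANADI was 1.04-fold higher in the ventral library. Its counting interval of 0.959 to 1.13 spanned an equal ratio. Both family comparisons keep the trend of the ventral over dorsal ratio on transcript length, described below. Family sums with that trend removed were not computed. The difference of the family medians, given below, reverses once the trend is removed. The near-equality of the HD-ZIP III to KANADI ratio between the sides rested in part on ATHB8. Without it the HD-ZIP III to KANADI ratio was 0.351 for the ventral and 0.258 for the dorsal library, a 1.36-fold difference, whereas leaving out any other measured member in turn gave values from 0.944 to 1.13.

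The make-up of the HD-ZIP III pool differed between the libraries. ATHB8 supplied 33.7% of the summed HD-ZIP III RPKM in the ventral library and 49.7% in the dorsal library. REV supplied 14.3% of it in the ventral library, against 8.12% in the dorsal library. PHB Csa6G525430 supplied 13.9% in the ventral library, against 8.55% in the dorsal library. Counted as reads, the ATHB8 share was 28.7% [27.3 to 30.2] in the ventral and 43.9% [41.5 to 46.3] in the dorsal library (exact Clopper-Pearson intervals). ATHB15 supplied 29.3% of HD-ZIP III reads [27.9 to 30.8] in the ventral and 21.5% [19.5 to 23.5] in the dorsal library. These shares compare members within a library and do not move with library scaling.

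**Figure D2:**
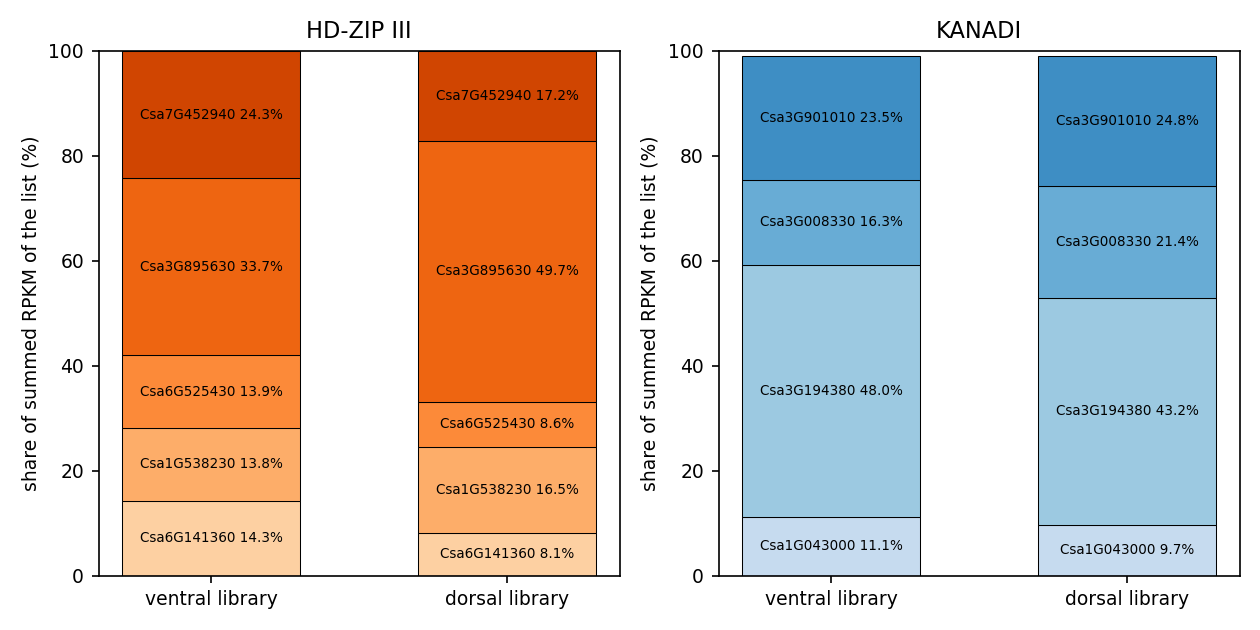
Share of the summed RPKM of the HD-ZIP III genes (left panel) and the KANADI genes (right panel) supplied by each gene, in percent, with the ventral library left of the dorsal library in each panel. The ATHB8 homologue Csa3G895630 takes 33.7% of the ventral and 49.7% of the dorsal HD-ZIP III sum, and the 3 KANADI genes with under 1% are not drawn.

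Within the KANADI pool, KAN1 Csa3G194380 supplied 48.0% of the summed RPKM in the ventral library and 43.2% in the dorsal library. KAN2 Csa3G008330 supplied 16.3% in the ventral and 21.4% of it in the dorsal library. Between any pair of the 4 measured KANADI genes the ratio differed by at most 1.50-fold between the sides, and 0 of 6 pairs reached 2-fold. Among the 5 HD-ZIP III genes 4 of 10 pairs reached 2-fold, beside 43.1% of all pairs of measured genes, so the share of HD-ZIP III pairs was near the background. Those 4 pairs were REV, PHB Csa6G525430 and ATHB15 each against ATHB8, and REV against PHB Csa1G538230. The widest was REV against ATHB8, at 0.424 per length for the ventral and 0.164 for the dorsal library, a 2.60-fold difference [2.10 to 3.24].

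Between the families 2 of 20 pairs reached 2-fold as counted, beside 43.1% of all pairs, both against KAN2 Csa3G008330. REV relative to it was 2.39-fold higher in the ventral library [1.86 to 3.06], and PHB Csa6G525430 relative to it was 2.20-fold higher [1.73 to 2.80]. Neither pair reached 2-fold with the trend of the ratio on transcript length, described next, removed: their log2 differences were then 0.45 and 0.27. With that trend removed 4 other pairs of the 20 reached 2-fold, beside 37.1% of all pairs of measured genes. In these KAN1 Csa1G043000 and KAN2 Csa3G901010 were each higher in the ventral library relative to PHB Csa1G538230 and to ATHB8, by 1.16 to 1.33 on the log2 scale. The pairs share genes and are not independent of each other.

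Transcript length bears on the comparison of the families. Exonic length, computed from reads and RPKM, was 2658 to 3760 bp for the HD-ZIP III genes and 990 to 1976 bp for the measured KANADI genes, so the families did not overlap in length. Over all 17462 measured genes the log2 ratio rose with exonic length (Spearman's rho 0.39, across genes and not across replicates). The 1538 measured genes in the length range of the HD-ZIP III genes had a median log2 ratio of 0.60, and the 7944 genes in that of the KANADI genes had a median of -0.10.

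As counted, the median log2 ratio was 0.54 for the HD-ZIP III genes, 0.03 for the KANADI genes and 0.01 for all measured genes, so that the HD-ZIP III median was higher by 0.51. With the trend on length removed, the medians were -0.24 for HD-ZIP III and 0.12 for KANADI, and the difference was -0.37, which reverses its direction. The trend at the lengths of the 5 HD-ZIP III genes was 0.47 to 0.78, and each of their ratios was lower by that amount. REV then had a log2 ratio of 0.29 [0.02 to 0.58] and PHB Csa6G525430 one of 0.11 [-0.15 to 0.38]. ATHB15 changed direction, to -0.24 [-0.42 to -0.07], with 36.6% of measured genes below it. Brackets with the trend removed are the counting limits shifted by the fitted value. They carry no error of the trend fit or of the computed exonic length.

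ATHB8 and PHB Csa1G538230 lay well under other genes of their length. With the trend removed ATHB8 had a log2 ratio of -0.9996 [-1.13 to -0.86], just short of the 2-fold limit, and 8.48% of measured genes lay below it. PHB Csa1G538230 was at -0.88 [-1.08 to -0.67], with 11.0% of measured genes below it. The 4 KANADI genes were at -0.16 to 0.33, between percentiles 41.4 and 67.8 of measured genes. None of the 9 members was called with the trend removed, beside 19.3% of all measured genes. Among the HD-ZIP III genes, REV against ATHB8 stood at 1.38 as counted and 1.29 with the trend removed, on the log2 scale. ATHB15 against ATHB8 stood at 1.06 as counted and 0.76 with the trend removed, under 2-fold, so that 3 of 10 HD-ZIP III pairs then reached 2-fold, beside 37.1% of all pairs.

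**Figure D3:**
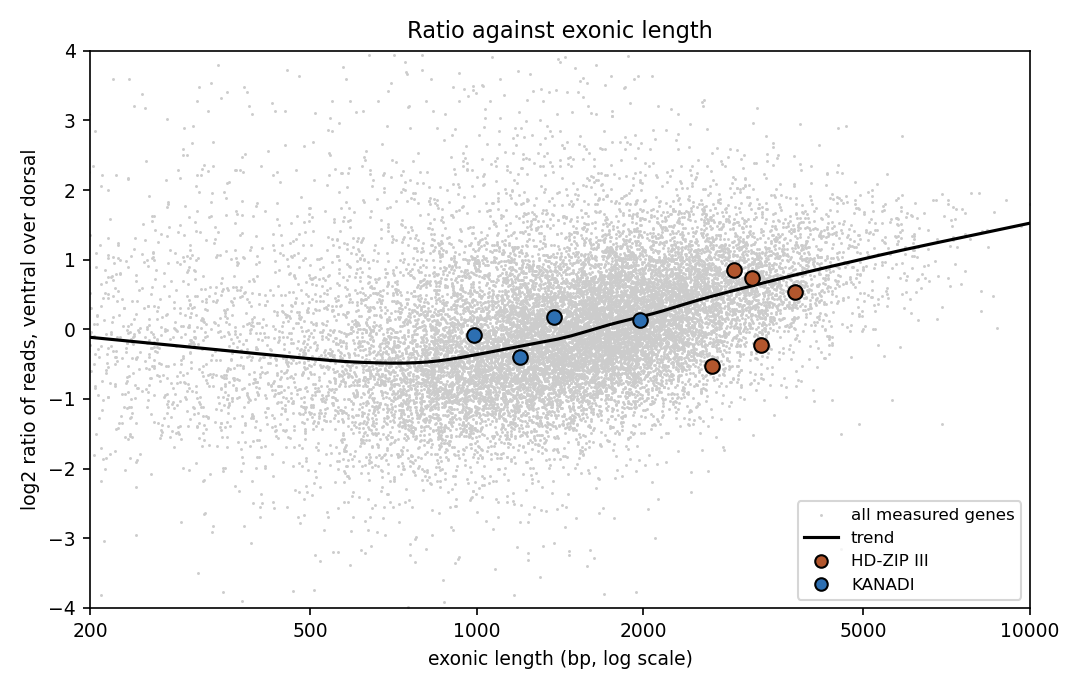
Log2 ratio of reads, ventral over dorsal, against exonic length (log scale) for measured genes (grey), with the fitted trend (black line), HD-ZIP III genes (brown) and KANADI genes (blue); 165 genes lie outside the axes. The HD-ZIP III genes sit at 2658 to 3760 bp, where the trend is well above 0, and the ATHB8 homologue and 1 PHB homologue sit below the line.

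**Figure D4:**
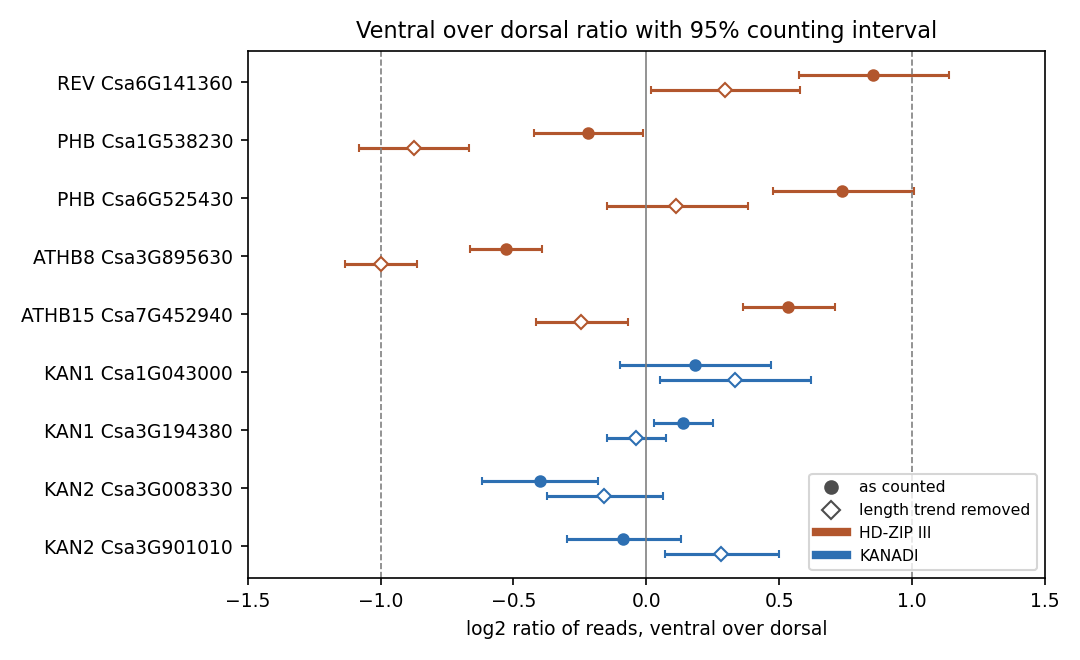
Log2 ratio, ventral over dorsal, for each measured homologue as counted (filled circles) and with the length trend removed (open diamonds), with 95% counting intervals and dashed lines at 2-fold. The REV homologue moves between 0.85 and 0.29 and the ATHB8 homologue between -0.53 and -0.9996. The KANADI genes lie at -0.40 to 0.18 as counted and at -0.16 to 0.33 with the trend removed.

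Tissues known for HD-ZIP III or KANADI expression, and other tissues in the sample, were followed through marker genes matched by Arabidopsis locus. Of 7 xylem marker rows, 5 were measured, 3 of them were called lower in the ventral library, beside 11.5% of all measured genes, and none higher. The summed level was 29.0 RPKM in the ventral and 60.4 RPKM in the dorsal library. XCP1 (Csa7G027790) and XCP2 (Csa4G664420), xylem proteases, made up most of that sum, with 27.0 and 26.0 RPKM in the dorsal library. The cellulose synthase IRX5 (Csa6G088080) lay the other way as counted, with a log2 ratio of 0.53 [0.18 to 0.90]. With the length trend removed its ratio was -0.22 [-0.58 to 0.14], which spans an equal level. The xylem master regulator VND7 had 7 ventral reads and 1 dorsal read, and 1 of the XCP1 rows was at 0 in the dorsal library. Procambium and cambium markers summed to 88.0 RPKM in the ventral and 77.4 RPKM in the dorsal library. Of these 6, 1 was called higher, beside 13.2% of all measured genes. That gene, the auxin response factor MP (Csa3G866510), had 878 ventral and 151 dorsal reads and was not called with the length trend removed. Phloem markers summed to 7233 RPKM in the ventral and 7964 RPKM in the dorsal library. A single PP2-A1 row (Csa7G056500), at 4625 RPKM in the ventral and 5641 RPKM in the dorsal library, made up most of both sums. The median log2 ratio of the 19 rows was -0.03. Of the 19, 1 was called higher, beside 13.2% of all measured genes, and 3 lower, beside 11.5%. Epidermis markers summed to 22.5 RPKM in the ventral and 20.4 RPKM in the dorsal library. Of 3 measured, 1 was called each way, beside 13.2% higher and 11.5% lower of all measured genes. The single ovule marker row, BEL1, had 1.40 RPKM in the ventral and 0.60 RPKM in the dorsal library. The marker sums are of deposited RPKM, which put the ventral side higher than TMM scaling does, and TMM-scaled marker sums were not computed. The part of tissue make-up in the values of HD-ZIP III and KANADI genes was not tested.

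LITTLE ZIPPER genes, targets of HD-ZIP III factors in Arabidopsis that encode small proteins blocking HD-ZIP III dimers, had a median log2 ratio of -0.97, or -0.53 with the length trend removed, and 1 of 3 was called lower in the ventral library, beside 11.5% of all measured genes, and none higher. That gene, ZPR2 (Csa5G157390), had 155 ventral and 205 dorsal reads, a log2 ratio of -1.51 [-1.82 to -1.21] and -1.06 with the length trend removed. ZPR1 (Csa3G125520), the most abundant of them, had 783 ventral and 709 dorsal reads and a log2 ratio of -0.97 [-1.12 to -0.82], short of 2-fold. ZPR3 (Csa3G776310) had 83 ventral and 52 dorsal reads, and its log2 ratio of -0.44 [-0.95 to 0.09] was -0.04 with the trend removed.

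Of 17 measured genes of the small RNA machinery that makes or uses miR165, miR166 and the trans-acting small RNAs against ARF3 and ARF4, 3 were called higher in the ventral library, 1 lower and 13 neither way, beside 24.7% of all measured genes called either way, so the share called was near the background. The median log2 ratio was 0.28 as counted and 0.08 with the length trend removed. AGO7 (Csa5G606440), the Argonaute that starts trans-acting small RNA production, had 1023 ventral and 92 dorsal reads, and its log2 ratio was 2.36 [2.06 to 2.69] as counted and 1.66 with the length trend removed. DCL1 (Csa3G116650), the enzyme that cuts microRNA precursors, had 1643 ventral and 347 dorsal reads and a log2 ratio of 1.13 [0.96 to 1.30], which was -0.04 with the trend removed and then not called. An AGO10 homologue (Csa1G408700), from a gene that in Arabidopsis withholds miR166 from AGO1, had 59 ventral and 7 dorsal reads and a log2 ratio of 1.96 [0.83 to 3.34], still called with the trend removed. The AGO10 homologue with the most reads (Csa3G144740) had 871 ventral and 393 dorsal reads and a log2 ratio of 0.04 [-0.14 to 0.21], which was -0.53 [-0.70 to -0.36] with the trend removed. Lower in the ventral library was a short DCL4 row (Csa4G006230; 136 ventral and 175 dorsal reads), at a log2 ratio of -1.47 [-1.81 to -1.14]. SGS3 (Csa2G336740), the most abundant of the list, had 6732 ventral and 1924 dorsal reads and a log2 ratio of 0.70 [0.62 to 0.77].

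ARF3 (Csa6G518210) and ARF4 (Csa6G291920), auxin response factors that work with KANADI on the abaxial side, were not called as counted, beside 24.7% of all measured genes. ARF3 had 445 ventral and 357 dorsal reads and a log2 ratio of -0.79 [-0.997 to -0.59]. ARF4 had 1373 ventral and 953 dorsal reads and a log2 ratio of -0.58 [-0.70 to -0.46]. Their exonic lengths of 3121 and 3000 bp are those of HD-ZIP III genes, and with the length trend removed both were called lower in the ventral library, at -1.41 and -1.17, beside 8.34% of all measured genes.

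AS1 homologues encode a MYB factor that with AS2 keeps abaxial and meristem genes off in adaxial cells. Of these, 1 of 2 was called lower in the ventral library, beside 11.5% of all measured genes. Csa3G734210 had 242 ventral and 286 dorsal reads and a log2 ratio of -1.35 [-1.60 to -1.10], whereas the more abundant Csa3G264750 had 1496 ventral and 604 dorsal reads and a log2 ratio of 0.20 [0.06 to 0.34]. None of 3 measured HD-ZIP II genes, adaxial partners of HD-ZIP III factors, was called as counted, beside 24.7% of all measured genes. The most abundant, ATHB2 (Csa3G019370), had 3382 ventral and 2000 dorsal reads and a log2 ratio of -0.35 [-0.43 to -0.27]. HAT3 (Csa1G433050; 138 ventral and 39 dorsal reads) was called once the length trend was removed, at 1.12 against 0.71 as counted, beside 10.9% of all measured genes called higher.

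WOX1 (Csa1G025040), a regulator of the margin between adaxial and abaxial domains, was called higher, beside 13.2% of all measured genes. It had 56 ventral and 8 dorsal reads and a log2 ratio of 1.70 [0.62 to 2.98]. A second WOX1 row (Csa1G042780), with 2 ventral and 5 dorsal reads, was under the minimum. PRS (Csa6G301060), a partner of WOX1, was called lower, beside 11.5% of all measured genes. It had 110 ventral and 106 dorsal reads and a log2 ratio of -1.06 [-1.46 to -0.66]. With the length trend removed PRS was not called, at -0.59. The AP2 factor DRN (Csa2G349090), which can bind HD-ZIP III proteins, had 37 ventral and 15 dorsal reads and a log2 ratio of 0.19 [-0.71 to 1.16]. Of 5 measured YABBY genes, which promote blade growth from the abaxial side, 3 were called lower in the ventral library, beside 11.5% of all measured genes, and none higher. FIL (Csa5G160210) had 50 ventral and 230 dorsal reads, YAB5 (Csa2G006820) had 35 ventral and 78 dorsal reads, and CRC (Csa5G606780) had 10 ventral and 27 dorsal reads, with log2 ratios of -3.31, -2.27 and -2.54. YAB2 (Csa6G426940), the most abundant of them, had 3038 ventral and 1214 dorsal reads and a log2 ratio of 0.21 [0.12 to 0.31].

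**Figure D5:**
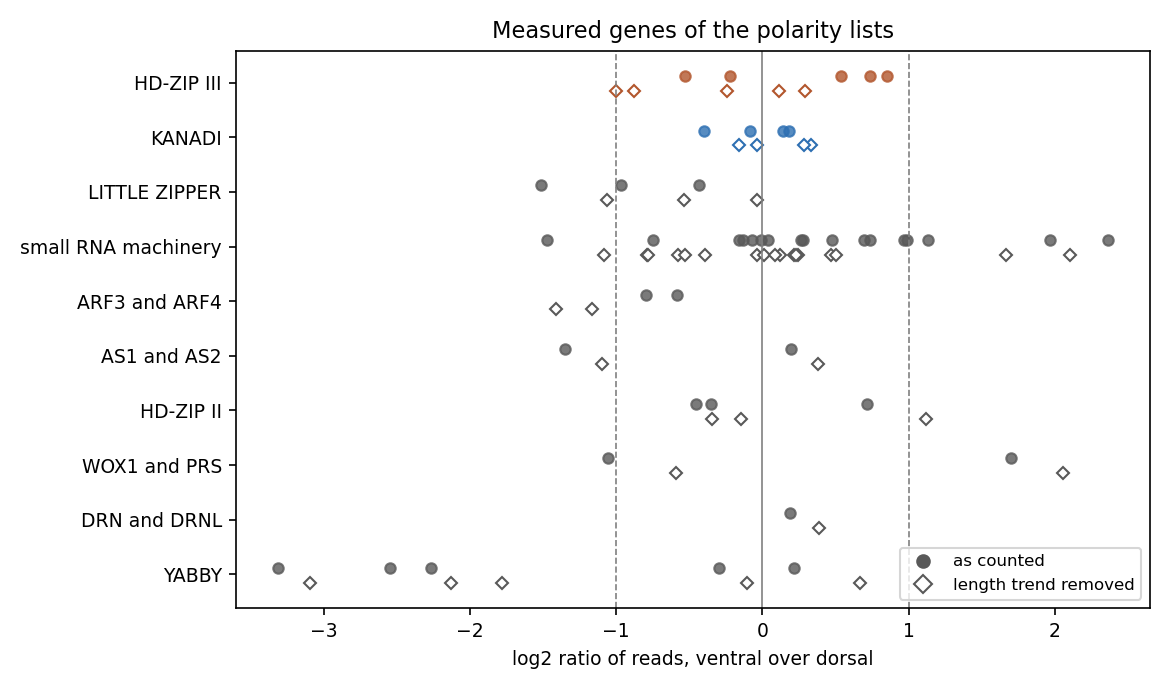
Log2 ratio, ventral over dorsal, of every measured gene of the polarity lists, as counted (filled circles) and with the length trend removed (open diamonds), with dashed lines at 2-fold. The HD-ZIP III and KANADI genes lie inside the lines as counted, while the LITTLE ZIPPER genes lie at or below -0.44.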

How the data were processed

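Poly(A) RNA of 1 ventral and 1 dorsal library was analysed. Whole-number read counts per gene were deposited without normalization, and RPKM values were deposited by the authors in a second table. TopHat2 and edgeR are named in the submitters' processing notes. The counting tool is not given in the sources used here, and nor are its use of strand and the genome build. Cucumber genes carry the Arabidopsis locus given in the deposited table, which the gene names here follow. None of the identifiers matched the RefSeq gene table, so no positions or sequences were used.

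Reads were scaled with TMM on measured genes (edgeR 4.0.16, R 4.3.3). Intervals are exact conditional binomial intervals at 95% (scipy 1.17.1). Ratios were not formed where both libraries had at most 3 reads, the number a count of 0 allows. Exonic length is reads over RPKM, with 1 constant per library set at the 0.99 quantile of implied over listed gene length for genes with at least 10 RPKM in both libraries. The length trend is a lowess fit (fraction 0.3, statsmodels 0.14.6). The ratio and trend steps were tested on simulated data. Alternatives were other scalings (total reads, DESeq2 1.42.0 size factors, median centring, deposited RPKM with a pseudocount of 0.1), minimums of 1 and 100 reads, a 99% interval and 2-fold without an interval. The members and lists were chosen with earlier results of these data known. Every member is named; of each other polarity list, the called genes and the one with most reads are named.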

Additional observations from a re-analysis of the deposited data

How the results depend on the processing

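No paired analysis was possible because there was a single library from either side. No member was called with DESeq2 size factors, median centring, the length trend removed, minimums of 1 or 100 reads, the 99% interval or 2-fold alone. Over all genes, DESeq2 size factors called 2386 higher and 1925 lower in the ventral library, and median centring 2255 and 2056. The minimum of 1 read called 2370 and 2189, that of 100 reads 1843 and 1564, and the 99% interval 2192 and 1935. Removing the length trend called 19.3% of measured genes either way, and 2-fold alone 25.3%. With total reads and with the deposited RPKM ratio 1 HD-ZIP III gene, REV, was called higher in the ventral library. Genes called lower in the ventral library over the whole table numbered 1283 and 1155 under these settings. The HD-ZIP III median log2 ratio was 0.77 and 0.79 and the KANADI median 0.26 and 0.29; total reads raise every log2 ratio by 0.23. With the length trend removed the HD-ZIP III median was -0.24 and the difference from KANADI was -0.37; why the ratio rises with length was not tested. Of 63 member ratios under alternatives, 20 lay outside the counting interval of the value as reported, all with total reads, the RPKM ratio or the length trend removed. Without genes under 0.5 RPKM in both libraries, the per-length ratio of HD-ZIP III to KANADI was 0.531 for the ventral and 0.512 for the dorsal library. As TMM-scaled reads per kb it was 0.535 for the ventral and 0.517 for the dorsal library. Neither setting removed the length trend. At these depths the genes under 20 reads could not be compared.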

Other observations

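Several polarity genes had more than 1 row matched to a single Arabidopsis locus, and such rows did not always share a ratio. The AGO10 rows with adjoining identifiers, Csa1G408700 and Csa1G408710, had log2 ratios of 1.96 and -0.07, on 59 ventral and 7 dorsal reads and on 107 ventral and 52 dorsal reads. The DCL4 rows Csa1G267180 and Csa4G006230 had log2 ratios of 0.27 and -1.47 with exonic lengths of 5256 and 956 bp, and -0.78 and -1.08 with the length trend removed. Whether such rows are separate genes or pieces of 1 gene was not tested.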
